A study of Homo sapiens with 6 samples.

Results

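ATF4 and CHOP are transcription factors of the integrated stress response, and this account covers the mRNAs of 10 genes at its centre. They are the bZIP factors ATF4, ATF3, ATF5, CEBPB, CEBPG and DDIT3 (the gene of CHOP), and the effectors TRIB3, CHAC1, NUPR1 and STC2. The genes were taken by symbol from the deposited count table. Each symbol matched 1 of its 21619 entries, and all 10 genes passed the filter on low counts. The libraries are polyA RNA from HT1080, a human fibrosarcoma line, in which the glycolytic enzyme phosphoglycerate kinase 1 (PGK1) was stably overexpressed (PGK1_OE, 3 libraries) or not (WT, 3 libraries). The labels do not give the vector, its promoter, the number of clones, or whether WT cells carry an empty vector. Separate cultures are not stated for the replicates either, and the p-values therefore rest on a spread between libraries that could be technical.

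Cells pass into this response when one of several kinases, each sensing another stress, phosphorylates the translation factor eIF2. General translation then slows, while the ATF4 mRNA is translated more through the upstream reading frames in its leader. ATF4 protein pairs with C/EBP factors, binds C/EBP-ATF response elements, and raises genes of amino acid supply as well as DDIT3, TRIB3 and CHAC1. Because ATF4 protein is set largely by translation, an mRNA level alone does not give the activity of the factor.

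PGK1 mRNA checks the labels. It had 533638, 484756 and 437633 counts in PGK1_OE replicates 1, 2 and 3, against 19801, 18621 and 18991 counts in WT replicates 1, 2 and 3, and was 24.2-fold higher in PGK1_OE (adjusted p = 9.65e-14 by edgeR). Depth was 35851668 to 40538274 counts per PGK1_OE library and 34425162 to 37500947 per WT library. The labels used here do not separate the 6 libraries by batch, and batch was not tested. Of 8 mesenchymal markers 8 averaged at least 1 FPKM (the authors' level per gene length and library size), with sums of 2692 to 2753 FPKM in PGK1_OE and 1462 to 1739 FPKM in WT. Of 6 epithelial markers 0 did, with sums of 0.557 to 1.07 FPKM in PGK1_OE and 1.10 to 1.47 FPKM in WT, and EPCAM, KRT5 and KRT14 had 0 counts throughout. Of 5 haematopoietic markers 0 did, with sums of 0.704 to 1.29 FPKM in PGK1_OE and 0.300 to 0.443 FPKM in WT, and PTPRC and CD14 had 0 counts. Of 3 endothelial markers only PECAM1 did, with sums of 1.63 to 2.47 FPKM in PGK1_OE and 0.625 to 0.717 FPKM in WT. The mesenchymal sums rest largely on VIM (1723 FPKM in PGK1_OE, 943 in WT) and MMP14 (648 in PGK1_OE, 386 in WT). Of the same markers COL5A1 was lower in PGK1_OE (4.93 FPKM, against 6.16 in WT), and S100A4 was similar (2.23 and 1.87 FPKM).

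In PGK1_OE cells 9 of the 10 genes fell and 1, ATF5, rose. Across all 14322 entries tested 35.8% were called lower, 35.4% were called higher and 71.2% were called in either direction, at an adjusted p under 0.05. The median log2 fold change was -3.04 over the 10 genes and -0.02 over all entries. A fall of at least 4-fold was called for 7 of the 10 genes, CHAC1, NUPR1, ATF3, TRIB3, DDIT3, CEBPG and STC2, and for 3.44% of all entries. For all 10 genes the 3 PGK1_OE values did not overlap the 3 WT values, which was so for 76.4% of all entries. In 9 of the 10 every PGK1_OE value lay below every WT value, against 38.5% of all entries. Together the 10 genes took 0.0504%, 0.0540% and 0.0529% of counts in PGK1_OE replicates 1, 2 and 3, against 0.265%, 0.262% and 0.263% in WT replicates 1, 2 and 3. In bulk RNA, fewer cells with a transcript and less of it per cell cannot be told apart.

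**Figure D1:**
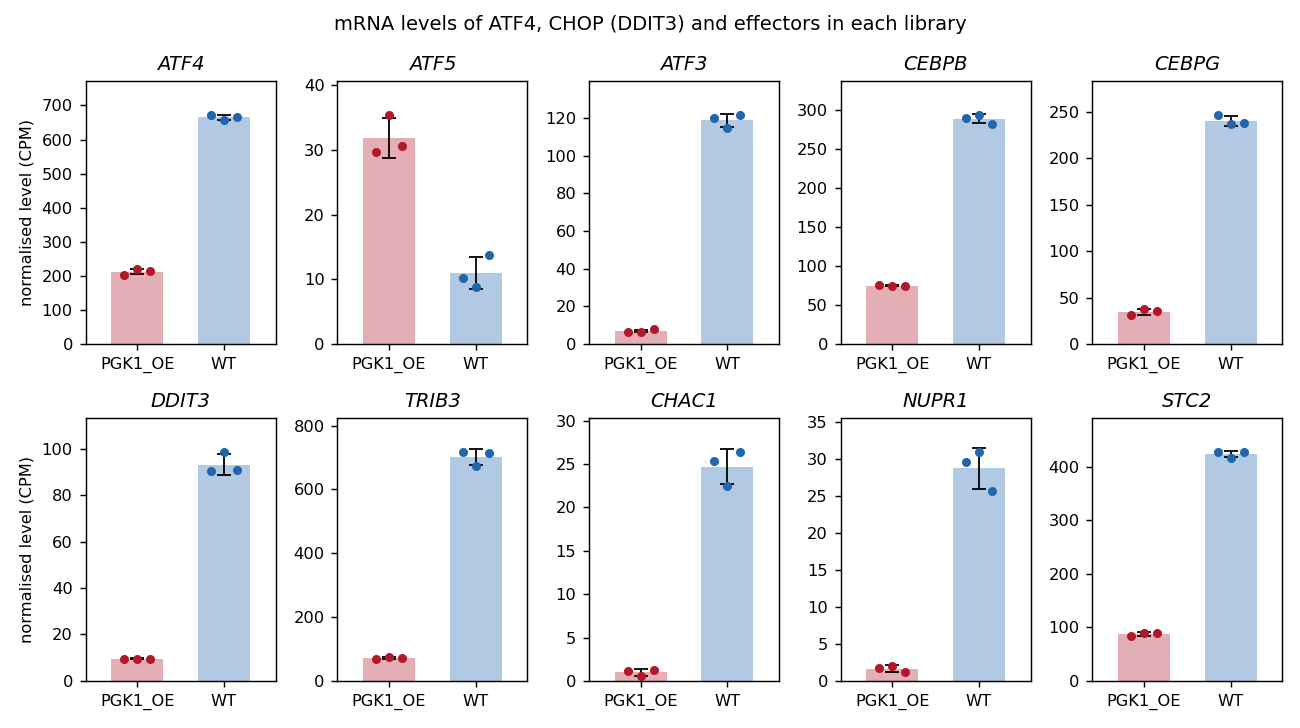
Normalised level of each gene in CPM (read counts scaled to library size with TMM factors), with PGK1_OE left of WT; points are libraries, bars are means and error bars are SD (n = 3 each), and each panel has its own axis from 0. ATF5 is the panel with the higher bar in PGK1_OE, at 31.9 CPM, against 10.99 CPM in WT.

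Promoter sequences are shown because 9 of the 10 genes fell together and ATF4 with its C/EBP partners is known to bind the C/EBP-ATF response element. RefSeq promoter windows on GRCh38.p14 (250 bases before to 50 after each transcript start) matched 9 of the 10 genes by symbol, all but NUPR1, with 18 windows among them. The core of the element, TGATGNAA, was searched on both strands and was found in 1 window each of ATF3, CHAC1 and CEBPG. That is 3 of 9 genes, and 4.46% of the 27305 genes in the table had such a match. By window it is 3 of 18, against 3.62% of all 35116 windows. The cAMP response element TGACGTCA was in 0 of the 18 windows and in 1.85% of all windows, so no matches of these motifs overlapped here. The stretches below are from the plus strand, 5′ to 3′, with the match in capitals, and leave out annotated exons, except that the CHAC1 match lies in an exon of a longer GENCODE 29 transcript and is shown with short flanks.
ATF3, chr1:212565157-212565333: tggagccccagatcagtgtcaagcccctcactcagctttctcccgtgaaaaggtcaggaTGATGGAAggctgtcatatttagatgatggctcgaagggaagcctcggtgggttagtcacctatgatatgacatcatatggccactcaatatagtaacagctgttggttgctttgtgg
CEBPG, chr19:33373896-33374112: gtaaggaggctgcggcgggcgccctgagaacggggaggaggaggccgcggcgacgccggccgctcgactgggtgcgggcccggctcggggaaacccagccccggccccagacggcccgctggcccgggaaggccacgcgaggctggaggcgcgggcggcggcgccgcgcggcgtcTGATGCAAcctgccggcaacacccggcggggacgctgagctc
CHAC1, chr15:40953251-40953280: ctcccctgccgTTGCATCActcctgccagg
The matches begin 191 bases before a transcript start of ATF3, 42 before one of CEBPG and 209 before the CHAC1 start. ATF3 and CEBPG each have 2 windows, and the other window of each held 0 matches. The CEBPG start beside the match was not found in GENCODE 29, whereas the start of its window with 0 matches was. The CEBPG match, at 33374071 to 33374078, lies inside the GENCODE 29 gene, which begins at 33373330, but outside its annotated exons. In CHAC1 the core reads on the minus strand as TGATGCAA, the same 8 letters that CEBPG carries on the plus strand, while ATF3 carries TGATGGAA. All 3 genes with a match fell, and so did 5 of the 6 searched genes without one. An element outside these windows would not be found, so a gene without a match may still carry one. A match is a description of letters and not evidence of binding, and the count table does not say which start was used.

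ATF4, the central transcription factor of the response (chromosome 22, 39519695 to 39522685, plus strand, GRCh38), had 204, 219 and 215 CPM in the PGK1_OE libraries, against 671, 656 and 667 CPM in the WT libraries. Every PGK1_OE library stood far below every WT library, and the libraries within a group lay close together. The log2 fold change, PGK1_OE over WT, was -1.64 (SE 0.04, adjusted p = 2.61e-11 by edgeR). It was the smallest of the 9 falls, and its 95% interval of -1.73 to -1.56 did not overlap that of the next gene, CEBPB. ATF4 was still the most abundant of the 10 per gene length, at 128 ± 8.49 FPKM in PGK1_OE and 416 ± 8.13 FPKM in WT (SD, n = 3 each).

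ATF5 (chromosome 19, 49928702 to 49933935, plus strand), a close relative of ATF4 that is likewise translated through upstream reading frames and acts in the mitochondrial stress response, went the other way. It had 1186, 1402 and 1077 counts in the PGK1_OE libraries and 390, 315 and 504 counts in the WT libraries. That is 29.6, 35.3 and 30.6 CPM in PGK1_OE, against 10.3, 8.91 and 13.8 CPM in WT. All PGK1_OE values lay above all WT values, and WT replicate 3 was the highest of its group. The log2 fold change was 1.53 (SE 0.16, adjusted p = 3.92e-05 by edgeR), a 2.90-fold rise.

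The ATF5 value is uncertain in 1 respect. In GENCODE 29, 21.2% of its exonic bases also lie in exons of NUP62, a nuclear pore gene on the opposite strand, and 2.54% in exons of IL4I1. Whether the counting used strand is not given in the sources used here. NUP62 was also higher, with 103 ± 5.77 CPM in PGK1_OE, against 55.4 ± 3.40 CPM in WT (SD, n = 3 each), a log2 fold change of 0.89 (SE 0.06, adjusted p = 7.46e-08 by edgeR). The part of NUP62 reads in the ATF5 value was not tested.

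ATF3, a factor that stress induces rapidly, had the largest fall of the bZIP genes (chromosome 1, 212565334 to 212620777, plus strand). It had 264, 260 and 276 counts in PGK1_OE replicates 1, 2 and 3, against 4537, 4054 and 4439 counts in WT replicates 1, 2 and 3. Normalised, these were 6.60, 6.55 and 7.83 CPM in PGK1_OE, against 119.7, 114.7 and 121.3 CPM in WT. The groups were far apart and each was narrow. The log2 fold change was -4.09 (SE 0.07, adjusted p = 4.13e-12 by edgeR), a 16.98-fold fall, and it ranked 104 among all 14322 changes ordered from the largest fall.

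Both C/EBP partners fell. CEBPB, a factor that forms dimers with ATF4 and CHOP (chromosome 20, 50190734 to 50192689, plus strand), had 75.2, 74.8 and 74.6 CPM in the PGK1_OE libraries and 289.96, 293 and 282 CPM in the WT libraries. Its log2 fold change was -1.94 (SE 0.04, adjusted p = 6.61e-12 by edgeR). The antisense transcript CEBPB-AS1 covers 11.8% of its exonic bases and was not analysed here. CEBPG, a short bZIP protein that pairs with ATF4 (chromosome 19, 33373330 to 33382686, plus strand), had 31.0, 37.6 and 35.6 CPM in PGK1_OE, against 246, 237 and 238 CPM in WT. Its log2 fold change was -2.79 (SE 0.06, adjusted p = 6.35e-11 by edgeR). CEBPG thus stood 6.92-fold lower and CEBPB 3.85-fold lower, and their 95% intervals, -2.93 to -2.65 for CEBPG and -2.03 to -1.86 for CEBPB, did not overlap.

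DDIT3 encodes CHOP, which promotes cell death when stress persists (chromosome 12, 57516588 to 57521737, minus strand). It had 383, 382 and 330 counts in the PGK1_OE libraries, against 3416, 3482 and 3320 counts in the WT libraries. Normalised, these were 9.57, 9.63 and 9.36 CPM in PGK1_OE and 90.2, 98.5 and 90.7 CPM in WT. The PGK1_OE values were nearly equal, and WT replicate 2 was the highest of its group. The log2 fold change was -3.29 (SE 0.06, adjusted p = 4.96e-12 by edgeR), a 9.77-fold fall.

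Other genes share exonic bases with DDIT3 in GENCODE 29. The methionyl-tRNA synthetase gene MARS1 on the opposite strand covers 27.2% of them, and MBD6, also on the opposite strand, 4.44%. The protein-coding entry AC022506.1 on the same strand covers 8.03% and was not analysed here. MARS1 stood at 264 ± 7.62 CPM in PGK1_OE and 588 ± 26.4 CPM in WT (SD, n = 3 each), a log2 fold change of -1.15 (SE 0.04, adjusted p = 6.08e-10 by edgeR). MBD6 had a log2 fold change of -0.39 (SE 0.06). Both changes are smaller than that of DDIT3, and the part of reads of these 3 genes in the DDIT3 value was not tested.

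TRIB3, a pseudokinase that ATF4 and CHOP induce and that in turn binds and restrains ATF4, was the most abundant of the 4 effectors in FPKM in both groups (chromosome 20, 362835 to 397559, plus strand). It had 68.6, 73.6 and 72.9 CPM in the PGK1_OE libraries and 717, 672 and 716 CPM in the WT libraries. Its log2 fold change was -3.29 (SE 0.05, adjusted p = 6.48e-13 by edgeR), with the smallest adjusted p of the 10. TRIB3 and DDIT3 had nearly the same fold change. WT replicate 2 was the lowest of its group for TRIB3 but the highest for DDIT3. Over the 6 libraries the log2 CPM of TRIB3 and DDIT3, each centred on its own mean, lay 0.20 apart (Euclidean distance). That was the smallest distance between any pair of the 10 genes. The largest distance, 7.64, was between CHAC1 and ATF5. With 2 groups, such distances mostly measure how alike the fold changes are.

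CHAC1, an enzyme that degrades glutathione and is induced through ATF4 (chromosome 15, 40952962 to 40956519, plus strand), had the largest fall by point estimate. It had 44, 23 and 46 counts in PGK1_OE replicates 1, 2 and 3, against 959, 792 and 965 counts in WT replicates 1, 2 and 3. In CPM it had 1.10, 0.580 and 1.31 in PGK1_OE and 25.3, 22.4 and 26.4 in WT. PGK1_OE replicate 2 was the lowest, and with so few counts the PGK1_OE level is known less precisely than those of the other genes. The log2 fold change was -4.64 (SE 0.26, adjusted p = 1.17e-06 by edgeR), with a 95% interval of -5.25 to -4.03. With limma on log2(FPKM + 1) it was -3.31, a scale on which low genes show too small a change.

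NUPR1, a small stress-induced chromatin protein (chromosome 16, 28532708 to 28539174, minus strand), was likewise low in PGK1_OE. It had 71, 80 and 41 counts in the PGK1_OE libraries, against 1121, 1094 and 940 counts in the WT libraries. The normalised levels were 1.65 ± 0.440 CPM in PGK1_OE and 28.7 ± 2.74 CPM in WT (SD, n = 3 each). PGK1_OE replicate 3 was the lowest of its group and WT replicate 3 the lowest of its own. The log2 fold change was -4.11 (SE 0.18, adjusted p = 2.32e-08 by edgeR), a 17.3-fold fall.

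STC2, a secreted glycoprotein that ATF4 induces (chromosome 5, 173314713 to 173329503, minus strand), had 83.4, 90.0 and 89.5 CPM in the PGK1_OE libraries, against 427, 416 and 427 CPM in the WT libraries. Its log2 fold change was -2.27 (SE 0.04, adjusted p = 4.86e-12 by edgeR), a 4.83-fold fall and the smallest of the 4 effectors.

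**Figure D2:**
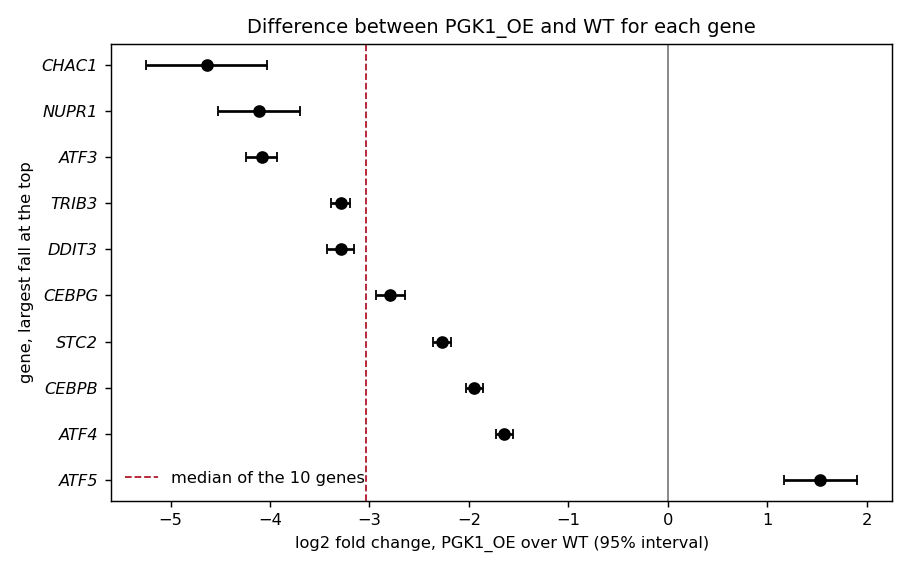
Log2 fold change, PGK1_OE over WT, of each gene with its 95% interval from edgeR, ordered from the largest fall; the dashed line is the median of the 10 genes, -3.04. Only ATF5 lies right of 0, at 1.53, and ATF4 at -1.64 has the smallest fall.

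Ordered by fold change, the genes ran from CHAC1 (-4.64) through NUPR1 (-4.11), ATF3 (-4.09), TRIB3 (-3.29), DDIT3 (-3.29), CEBPG (-2.79), STC2 (-2.27), CEBPB (-1.94) and ATF4 (-1.64) to ATF5 (1.53). The 95% intervals of neighbours overlapped for CHAC1 and NUPR1, for NUPR1 and ATF3, and for TRIB3 and DDIT3, and for no other neighbours. The interval of CHAC1 also overlapped that of ATF3, so the order of CHAC1, NUPR1 and ATF3 is not settled. Over the alternatives their smallest falls were -3.31 for CHAC1, -3.53 for NUPR1 and -3.66 for ATF3. All 17 alternative analyses kept the direction and the call of each of the 10 genes, and the largest adjusted p among them was 0.000911, for ATF5.

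Levels were set against each other per gene length, in FPKM. In PGK1_OE the order of the means was ATF4 (128), CEBPB (37.3), TRIB3 (28.1), STC2 (19.5), ATF5 (15.1), DDIT3 (9.45), CEBPG (8.52), ATF3 (3.99), NUPR1 (1.06) and CHAC1 (0.683). In WT it was ATF4 (416), TRIB3 (284), CEBPB (148), DDIT3 (97.6), STC2 (96.1), CEBPG (62.2), ATF3 (62.1), NUPR1 (22.9), CHAC1 (15.6) and ATF5 (5.48). Neighbours whose libraries overlapped were DDIT3 with CEBPG and NUPR1 with CHAC1 in PGK1_OE, and DDIT3 with STC2 and CEBPG with ATF3 in WT. ATF5 was thus the least abundant of the 10 in WT and the fifth in PGK1_OE. ATF4 made up 50.4%, 49.7% and 52.6% of the summed FPKM of the 10 genes in the PGK1_OE libraries, against 34.8%, 33.9% and 34.4% in the WT libraries. TRIB3 made up 11.1%, 11.5% and 10.8% in PGK1_OE and 23.7%, 22.9% and 23.9% in WT.

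Within a library, the level of each gene was also divided by that of ATF4. The log2 ratio of ATF3 to ATF4 in FPKM was -4.99, -5.07 and -4.97 in the PGK1_OE libraries, against -2.79, -2.73 and -2.72 in the WT libraries. That of TRIB3 was -2.18, -2.12 and -2.28 in PGK1_OE and -0.56, -0.57 and -0.53 in WT. For 8 of the 9 genes the ratio was lower in every PGK1_OE library than in every WT library, so these mRNAs fell by more than ATF4 itself. The differences of the mean log2 ratio, PGK1_OE minus WT, ran from -2.88 for CHAC1, -2.75 for NUPR1, -1.67 for DDIT3 and -1.18 for CEBPG to -0.60 for STC2 and -0.29 for CEBPB. ATF5 was the exception, with ratios of -3.12, -2.91 and -3.25 in PGK1_OE and -6.36, -6.51 and -5.93 in WT. The ratios are a description, and no test was run on them.

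**Figure D3:**
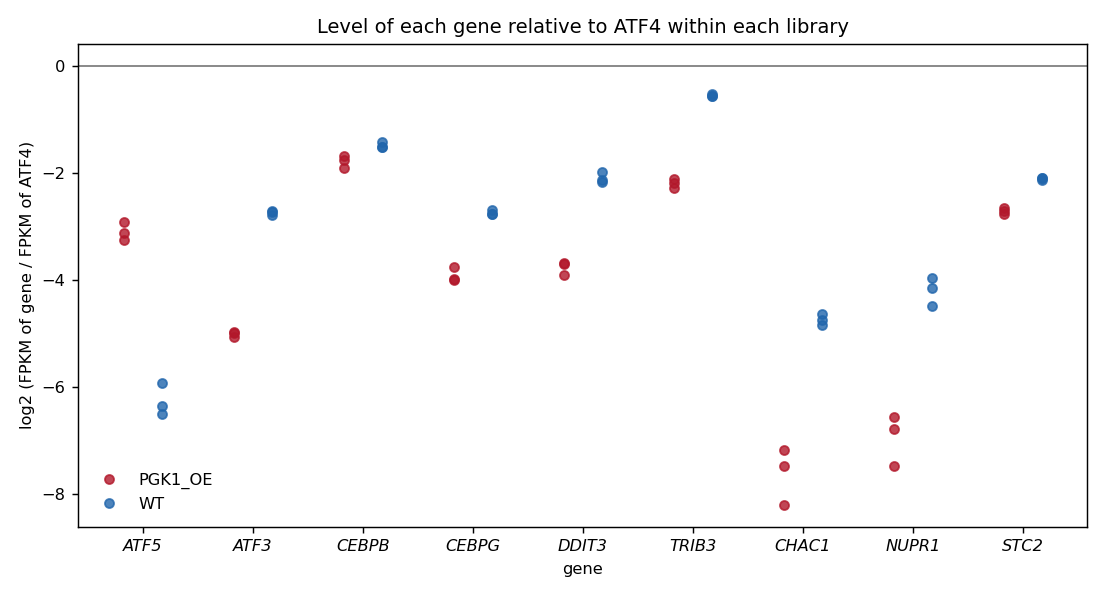
Log2 ratio of the FPKM of each gene to that of ATF4 in the same library, with PGK1_OE left of WT and 1 point per library. The PGK1_OE points lie below the WT points for each gene other than ATF5, by 0.29 on average for CEBPB and by 2.88 for CHAC1.

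The entries most alike in pattern were found among 10717 genes whose log2 CPM averaged 2 or more, by the distance of centred log2 CPM over the 6 libraries. Closest to ATF4 were ERBIN (distance 0.07), NOC3L (0.10), AMOTL2 (0.10), ASB1 (0.10) and MICU3 (0.10), with log2 fold changes between -1.69 and -1.58. Closest to DDIT3 were PLCB4 (0.13), IL24 (0.16), CLIP4 (0.16), GADD45A (0.21) and CCND2 (0.28), with log2 fold changes between -3.42 and -3.17. With 2 groups, this likeness mostly measures a like fold change.

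The genes around ATF4 and CHOP were described by lists. Upstream, 16 genes of eIF2 kinases, eIF2 and eIF2B subunits, phosphatase subunits and their regulators were tested. Among them 4 rose, 10 fell and 2 did not pass, with a median log2 fold change of -0.37. In either direction 87.5% of them were called, against 71.2% of all entries. Over all entries 35.4% were called higher and 35.8% lower. The kinase genes did not fall. EIF2AK2, the kinase sensing double-stranded RNA, stood at 84.0 ± 3.36 CPM in PGK1_OE and 60.5 ± 1.41 CPM in WT (log2 fold change 0.47, SE 0.05). EIF2AK3, the kinase PERK of ER stress, rose by 0.45 (SE 0.09) and EIF2AK4, the kinase GCN2 of amino acid shortage, by 0.28 (SE 0.04) on the log2 scale. EIF2AK1, the haem-regulated kinase HRI, had 165 ± 2.17 CPM in PGK1_OE and 164 ± 2.50 CPM in WT (log2 fold change 0.01, SE 0.04, adjusted p = 0.804 by edgeR).

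From that list 3 further genes were named after their values were seen. PPP1R15A (GADD34), the stress-induced phosphatase subunit that reverses eIF2 phosphorylation and is itself a target of ATF4 and CHOP, stood at 129 ± 5.54 CPM in PGK1_OE and 849 ± 24.9 CPM in WT (log2 fold change -2.72, SE 0.04, adjusted p = 1.98e-12 by edgeR). Its constitutive counterpart PPP1R15B fell by 0.76 on the log2 scale (SE 0.04). IMPACT, an inhibitor of GCN2 activation, fell by 2.00 (SE 0.05).

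Among 30 tested genes of other bZIP factors 3 rose, 17 fell and 10 did not pass (median -0.45). The share called in either direction was 66.7%, against 71.2% of all entries. CEBPA had a log2 fold change of -0.72 (SE 0.31, adjusted p = 0.0576 by edgeR), CEBPD of 0.41 (SE 0.19, adjusted p = 0.0704 by edgeR) and DBP of 0.26 (SE 0.18, adjusted p = 0.201 by edgeR). NFIL3 fell by 1.02 (SE 0.06). CEBPA passed under 5 of the alternatives and CEBPD under 1. MAFF (-2.44), JDP2 (-2.19) and XBP1 (-2.10), named after their values were seen, had the largest falls of the list.

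Downstream, 18 of 20 genes of amino acid synthesis and transport fell, 1 rose and 1 did not pass (median -1.97). That is 95% called in either direction, against 71.2% of all entries, and 35.8% of all entries were called lower. ASNS, asparagine synthetase, stood at 23.0 ± 2.14 CPM in PGK1_OE and 705 ± 7.80 CPM in WT (log2 fold change -4.94, SE 0.06, adjusted p = 5.27e-13 by edgeR). The serine pathway genes PSAT1 (-2.14, SE 0.08) and PHGDH (-1.85, SE 0.06) fell, whereas PSPH, the last step of that pathway, had 37.2 ± 4.88 CPM in PGK1_OE and 37.5 ± 1.78 CPM in WT (log2 fold change -0.01, SE 0.09, adjusted p = 0.909 by edgeR). SLC38A2, a neutral amino acid transporter, was the gene called higher, by 0.12 on the log2 scale (SE 0.04, adjusted p = 0.0232 by edgeR). That call was lost under 6 of 17 alternatives, with adjusted p-values up to 0.437, and it was named after its value was seen. SLC7A11, the cystine importer gene, also named after its values were seen, had 6.10, 12.1 and 9.53 CPM in the PGK1_OE libraries, against 252, 203 and 257 CPM in the WT libraries. It fell by 4.68 on the log2 scale (SE 0.28, adjusted p = 0.000121 by edgeR), with PGK1_OE replicate 1 and WT replicate 2 the lowest of their groups.

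All 14 genes of tRNA charging that were tested fell (median -1.25), whereas 35.8% of all entries were called lower. Of the aminoacyl-tRNA synthetase genes in the list, AARS1 stood at 153 ± 3.81 CPM in PGK1_OE and 659.8 ± 12.6 CPM in WT (log2 fold change -2.11, SE 0.04). CARS1 (-2.02, SE 0.04), EPRS1 (-1.31, SE 0.04) and GARS1 (-2.14, SE 0.04) fell as well.

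Of 14 tested targets in stress signalling and cell death 11 fell and 3 rose (median -0.91). All 14 were thus called, against 71.2% of all entries, and 35.8% of all entries were called lower. SESN2, an inhibitor of mTORC1, stood at 30.9 ± 4.12 CPM in PGK1_OE and 175 ± 7.37 CPM in WT (log2 fold change -2.51, SE 0.09). DDIT4, another inhibitor of mTORC1, fell by 1.78 (SE 0.13) and the secreted stress factor GDF15 by 2.17 (SE 0.12) on the log2 scale. The hormone gene FGF21 had 0 counts over the PGK1_OE libraries and 145 over the WT libraries, which is at least 50.6-fold lower against a floor of 3 counts over the group. The 3 that rose, named after their values were seen, were VLDLR (0.95, SE 0.07), the ER oxidase gene ERO1A (1.02, SE 0.04) and the BCL2-family death gene BCL2L11 (0.69, SE 0.09). KLHL24, likewise named, was among the 11 that fell, but its groups overlapped (log2 fold change -0.14, SE 0.06, adjusted p = 0.0476 by edgeR). Leaving out each library in turn gave 10 to 11 genes of the list lower.

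The ATF6 and IRE1 arms of the ER stress response, which do not run through eIF2, held genes called in both directions. Of 15 tested genes 10 rose and 5 fell (median 0.51). All 15 were thus called, against 71.2% of all entries. Over all entries 35.4% were called higher and 35.8% lower. The ER chaperone HSP90B1 stood at 1567 ± 19.8 CPM in PGK1_OE and 1097 ± 44.6 CPM in WT (log2 fold change 0.51, SE 0.04), and SDF2L1 rose by 2.88 (SE 0.15). Named after their values were seen, CALR (1.83, SE 0.05) and MANF (1.91, SE 0.05) rose too. The 5 that fell were HSPA5 (-0.14, SE 0.04), DNAJB9 (-1.02, SE 0.08), HYOU1 (-0.11, SE 0.04), HERPUD1 (-0.93, SE 0.04) and the IRE1 gene ERN1 (-3.09, SE 0.06), the last 3 named after their values were seen. HYOU1 was not called under 6 of 17 alternatives, with adjusted p-values up to 0.111. SYVN1, also named after its value was seen, was called higher near the threshold (log2 fold change 0.13, SE 0.05, adjusted p = 0.0475 by edgeR). Leaving out each library in turn gave 9 to 10 genes of the list higher and 4 to 5 lower. The list merges both arms and leaves out XBP1, the transcription factor of the IRE1 arm. XBP1 was counted with the other bZIP factors and fell (log2 fold change -2.10, SE 0.04).

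**Figure D4:**
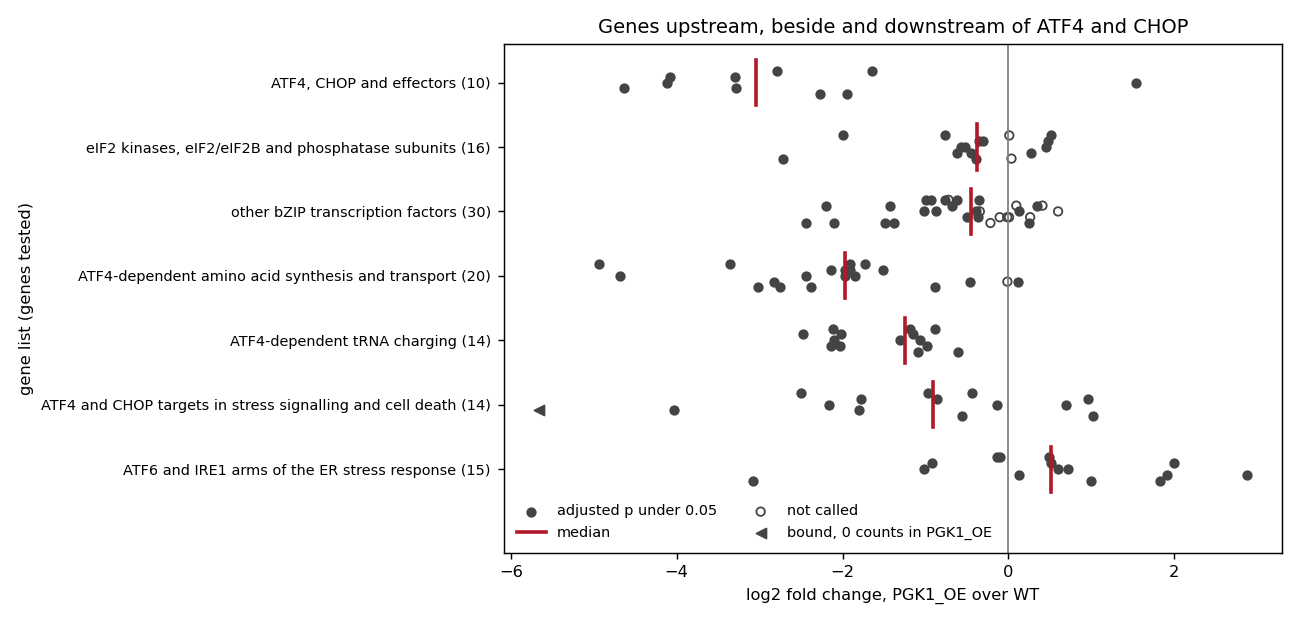
Log2 fold change, PGK1_OE over WT, of every tested gene of each list, with filled points for genes called, open points for genes not called and red bars for medians; the triangle is the bound for FGF21. Medians run from -3.04 for the 10 genes to 0.51 for the merged list of the ATF6 and IRE1 arms, which leaves out XBP1.

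The lists overlap in function, were chosen with earlier results known and were given no test of their own. Among the genes named from them, ASNS shares 44.6% of its exonic bases with a transcript on the same strand, and DDIT4 41.2% with DDIT4-AS1 on the opposite strand. CEBPA shares up to 25.0% and EIF2AK3 up to 14.4% with an antisense transcript, BCL2L11 10.9% with the opposite-strand transcript MIR4435-2HG and DBP 10.1% with SPHK2. Smaller shares, each under 10%, hold for EIF2AK1, EIF2AK2, JDP2, SLC7A11, CARS1, GARS1, VLDLR, ERO1A, HSP90B1, DNAJB9, HYOU1, SYVN1 and CALR. Values of these genes may include reads of the other transcript.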

How the data were processed

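Read counts and FPKM of 6 HT1080 libraries were analysed, with groups from the sample titles and table columns matched through the sample descriptions. Per the submitters' processing notes, the authors used fastp and HISAT with build hg38. No source used here gives the counter, its strand setting, the annotation or any version. The deposited counts are raw whole numbers per gene, and the deposited FPKM are the authors' values per gene length and library size.

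Counts were fitted across all genes in R 4.3.3 with edgeR 4.0.16 (filterByExpr, TMM, robust quasi-likelihood test with group as the only term, two-sided). Benjamini-Hochberg adjustment ran over 14322 entries, and an adjusted p under 0.05 was called. SE is the absolute log2 fold change over the square root of F. The common dispersion was 0.0230, and libraries of a group differed beyond sampling noise (7.93 to 15.2 as chi-square divided by its degrees of freedom). Depth was 34425162 to 40538274 counts. The steps were tested on simulated data. A prior count of 2 entered the log2 CPM behind distances.

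The members, lists and tests were chosen with earlier results of these data known. Named genes are PGK1, the 10 members, the first 4 tested genes of each list as written, and the 5 genes most like ATF4 and DDIT3, others being marked in the text. Coordinates and overlaps are from GENCODE 29 (GRCh38, the same build as hg38) by Ensembl identifier, and promoters from RefSeq. Alternatives were RLE factors, library totals, 2 other low-count filters, DESeq2 1.42.0, limma 3.58.1 (voom, or log2 FPKM with a pseudocount of 1 or 0.1), the replicate number as a block, each library left out and an adjusted p under 0.01.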

Additional observations from a re-analysis of the deposited data

How the results depend on the processing

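The fold changes of PGK1 and the 10 genes and the counts of called genes and of list members, 27 results in all, were recomputed under 17 alternatives. Of 459 comparisons 450 kept direction and call, or stayed within 1.5 times the reported count, and 9 did not, each a count of 3 or fewer genes. The count of amino acid genes called higher (1, SLC38A2) was 0 with library totals, on all 3 FPKM fits and at an adjusted p under 0.01, and 0 to 1 when each library was left out in turn. The count of other bZIP genes called higher (3) was 1 on the 3 FPKM fits. Leaving out each library gave 9 of the 10 genes lower and 1 higher in every case, and 4800 to 4955 entries lower and 4810 to 5022 higher overall. Log2 fold changes over all alternatives ranged from -1.70 to -1.61 for ATF4, -3.35 to -3.24 for DDIT3, 1.32 to 1.74 for ATF5, -4.87 to -3.31 for CHAC1 and -4.32 to -3.53 for NUPR1. EIF2AK1, not called, changed sign with library totals (-0.0347, adjusted p = 0.394 by edgeR) and on the limma FPKM fits (-0.0314 with a pseudocount of 1, filtered or not, and -0.0323 with 0.1, adjusted p = 0.387 to 0.477). PSPH, not called, ranged from -0.1183 to 0.0759 as each library was left out, and was above 0 without PGK1_OE replicate 1 or 2 or WT replicate 1 or 3 (adjusted p = 0.429 to 0.982 by edgeR). The causes were not tested.

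The replicate number as a block gave 4970 entries lower and 4973 higher and changed no call of the 10 genes. Deviations of same-numbered libraries from their group means correlated at 0.03, 0.00 and 0.15, and 3 of 6 libraries correlated best with their own number. With 3 libraries per group this check cannot settle whether the numbers mark pairs. The labels do not say what the numbers pair, so they are not taken as pairs. Depth limits the genes with few PGK1_OE counts, among them CHAC1, NUPR1, FGF21 and CEBPA, each with 80 counts or fewer per library.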
